A study of Homo sapiens with 6 samples.

Results

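The genes examined here encode the integrin subunits, laminin chains and collagen chains of a human keratinocyte line, together with fibronectin (FN1). They were chosen by symbol, with earlier results of these data known. The set holds every gene of the deposited table named ITGA or ITGB with a subunit number or letter, and FN1. It also holds every LAMA, LAMB or LAMC with a chain number and every numbered COL chain. This gave 43 of the 22152 entries of the table, made up of 18 integrin entries (17 subunits, as ITGB3 has 2 entries), 7 laminin chains, 17 collagen chains and FN1. HaCaT, a spontaneously immortalised line of human skin keratinocytes and the only line used, was transfected either with a synthetic miR-21-3p mimic at 1 nM or with a negative control mimic (NC) at the same dose. Total RNA was taken 48 h later, enriched for polyA RNA, made into stranded libraries and sequenced, with 3 replicates for each mimic. The comparison asks which mRNAs differ in level between cells given miR-21-3p and cells given the control. The labels do not say whether the replicates came from separate cultures, so the p-values measure only the spread between these 6 libraries, which may be technical.

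Integrins are cell surface receptors made of an alpha and a beta subunit, and they tie the cytoskeleton to the matrix outside the cell. Basal keratinocytes rest on a basement membrane, a sheet of laminin trimers and a collagen IV network, and are riveted to it by hemidesmosomes, in which the integrin pair ITGA6 and ITGB4 and the transmembrane collagen COL17A1 bind an epidermal laminin built with LAMA3 and LAMB3, while anchoring fibrils of COL7A1 hold the sheet to the dermis. Other integrins of the same cells bind fibrillar collagens or fibronectin, the matrix that keratinocytes meet and partly make when they migrate over a wound.

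The deposited values are gene-level read counts divided by a size factor for each library, here called normalised read counts. The whole reads recovered from them came to 24403907, 24528419 and 26171272 in NC replicates 1, 2 and 3. In the miR-21-3p libraries they came to 24808624, 24977207 and 27985331. Of the 43 entries, 41 passed a filter of a normalised read count of at least 10 in at least 3 libraries, as did 14795 genes of the whole table. All 41 passed it in every library of both groups. The remaining 2 entries both carry the symbol ITGB3 (ENSG00000259207.3 and ENSG00000259753.1), a beta subunit of platelets and endothelium, and each had 0 reads in all 6 libraries, where 3 reads is the most that a count of 0 allows. Their exons overlap each other on the same strand over 51.6% and 81.4% of the length, and those of the second overlap EFCAB13 over 18.6%, so the bound covers only reads assigned to ITGB3.

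The keratinocyte label was checked on a list of 10 markers, of which 9 had an entry in the table. Their summed normalised read count was 321900, 309930 and 321360 in the NC libraries and 326900, 337760 and 314550 in the miR-21-3p libraries. KRT5, the basal keratin, was the most abundant. KRT6A, a keratin of activated keratinocytes, was the only 1 of the 9 past the test, with 16800, 17100 and 16500 in NC and 21500, 20700 and 21700 with miR-21-3p (log2 difference 0.34, limma adjusted p = 0.00207). None of 8 fibroblast markers had an entry, so their levels are not known here. Of 7 melanocyte markers 2 had an entry (MITF and PMEL, summed 585 to 640 over the libraries, MITF the higher), of 7 endothelial markers 1 (VWF, 712 to 801) and of 10 leukocyte markers 1 (CD14, 58.7 to 92.2). The markers without an entry were not analysed here.

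Among the control libraries, NC replicates 1 and 2 stood apart in different ways. Log2 deviations were taken from the mean of each library's own group. In NC replicate 1 their median ran from -0.057 in the lowest of 10 equal bins of transcript GC to 0.076 in the highest. In every other library it stayed between -0.042 and 0.027. NC replicate 1 was the highest of the 3 controls for 23 of the 41 genes. NC replicate 2 lay closest to the treated libraries: over all genes tested, the SD of its log2 difference from a miR-21-3p library averaged 0.233, against 0.275 for NC replicate 3 and 0.315 for NC replicate 1, and its own distance to the other controls averaged 0.231. For 27 of the 41 genes NC replicate 2 was the control nearest to the miR-21-3p mean. The number of calls moved with these libraries, from 1593 genes over the whole table to 542 without NC replicate 1, 2957 without NC replicate 2 and 176 without NC replicate 3. It was 277 without miR-21-3p replicate 1, 1541 without replicate 2 and 365 without replicate 3.

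**Figure D1:**
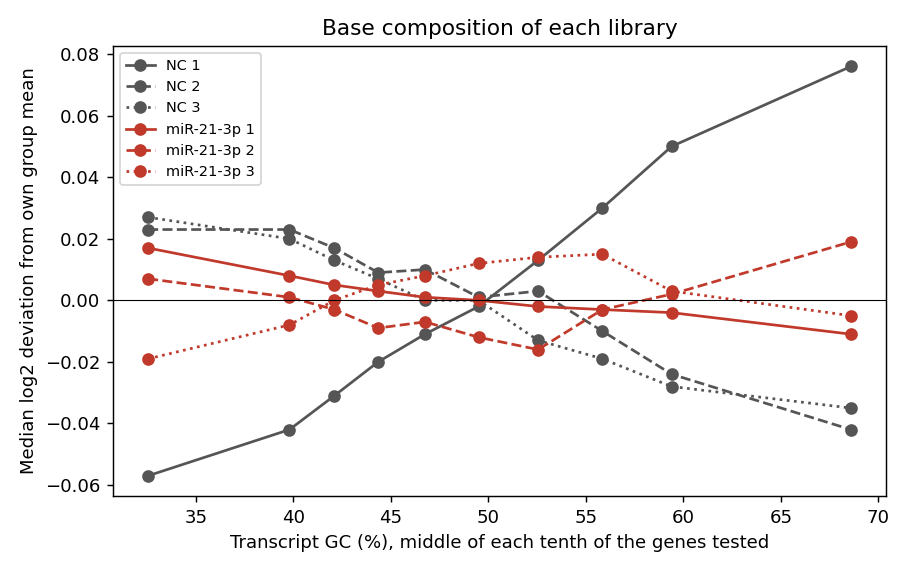
Median log2 deviation of each library from the mean of its own group (vertical axis) over 10 equal bins of the tested genes ordered by transcript GC in percent (horizontal axis); grey lines are NC and red lines miR-21-3p libraries. NC replicate 1 climbs from -0.057 to 0.076, while the other 5 libraries lie between -0.042 and 0.027.

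Of the 41 genes tested, 6 were higher and 5 lower with miR-21-3p at an adjusted p under 0.05 (limma, Benjamini-Hochberg over 14795 genes), and 30 were not called. Over all genes tested 10.8% were called, 6.11% higher and 4.66% lower, against 26.8% of these genes. The 6 that rose were COL5A3, ITGA1, FN1, COL9A2, LAMB1 and COL4A2, and the 5 that fell were ITGA7, COL4A5, COL7A1, ITGB4 and LAMA3. The median log2 difference was -0.061 over the 41 genes (-0.025 without NC replicate 1, -0.038 with the GC trend of each library removed) and 0.004 over all genes tested. All 3 treated libraries lay above all 3 controls for 8 of the 41 genes and below them for 11, where 16.5% and 14.8% of all genes tested did so. These are bulk RNA measurements, so fewer cells carrying an mRNA and less of that mRNA per cell cannot be told apart. Call numbers again depended on the libraries: 5 of the 41 genes were called without NC replicate 1, 18 without NC replicate 2, 1 without NC replicate 3, 2 without miR-21-3p replicate 1, 12 without replicate 2 and 2 without replicate 3. For each of the 11 called genes, NC replicate 2 was the control nearest to the treated mean.

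Split by place in the tissue, 16 of the tested genes belong to the basement membrane and hemidesmosome and 25 do not. Among the 16, 2 rose (LAMB1 and COL4A2) and 4 fell (COL4A5, COL7A1, ITGB4 and LAMA3), which is 37.5% called beside 10.8% of all genes tested. Their median log2 difference was -0.078 (-0.050 without NC replicate 1). All 6 of these calls were lost without NC replicate 3, miR-21-3p replicate 1 or miR-21-3p replicate 3. Among the 25 others, 4 rose (COL5A3, ITGA1, FN1 and COL9A2) and 1 fell (ITGA7), which is 20% called, with a median of 0.027. These counts ran from 1 to 4 higher and from 0 to 4 lower with 1 library left out. DESeq2 called 3 of the 25 lower. The 7 genes of the hemidesmosome and its anchoring fibril, taken alone, held 3 falls and 0 rises (limma), which is 42.9% called. Of all genes tested, 4.66% were lower and 6.11% higher. With 7 genes, 0 rises cannot be told from the share of all genes that were higher. The median of the 7 was -0.15. Their falls were 0 in the same 3 fits with 1 library left out. Rises were also 0 at an unadjusted p under 0.05, and 0 with DESeq2 and with edgeR on the recovered reads. The difference between both classes was not tested. The median of the 25 others changed sign in 5 of the 6 fits with 1 library left out, to -0.001 without NC replicate 1, -0.003 without NC replicate 2, -0.008 without NC replicate 3, -0.002 without miR-21-3p replicate 2 and -0.009 without miR-21-3p replicate 3, and was 0.018 without miR-21-3p replicate 1.

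**Figure D2:**
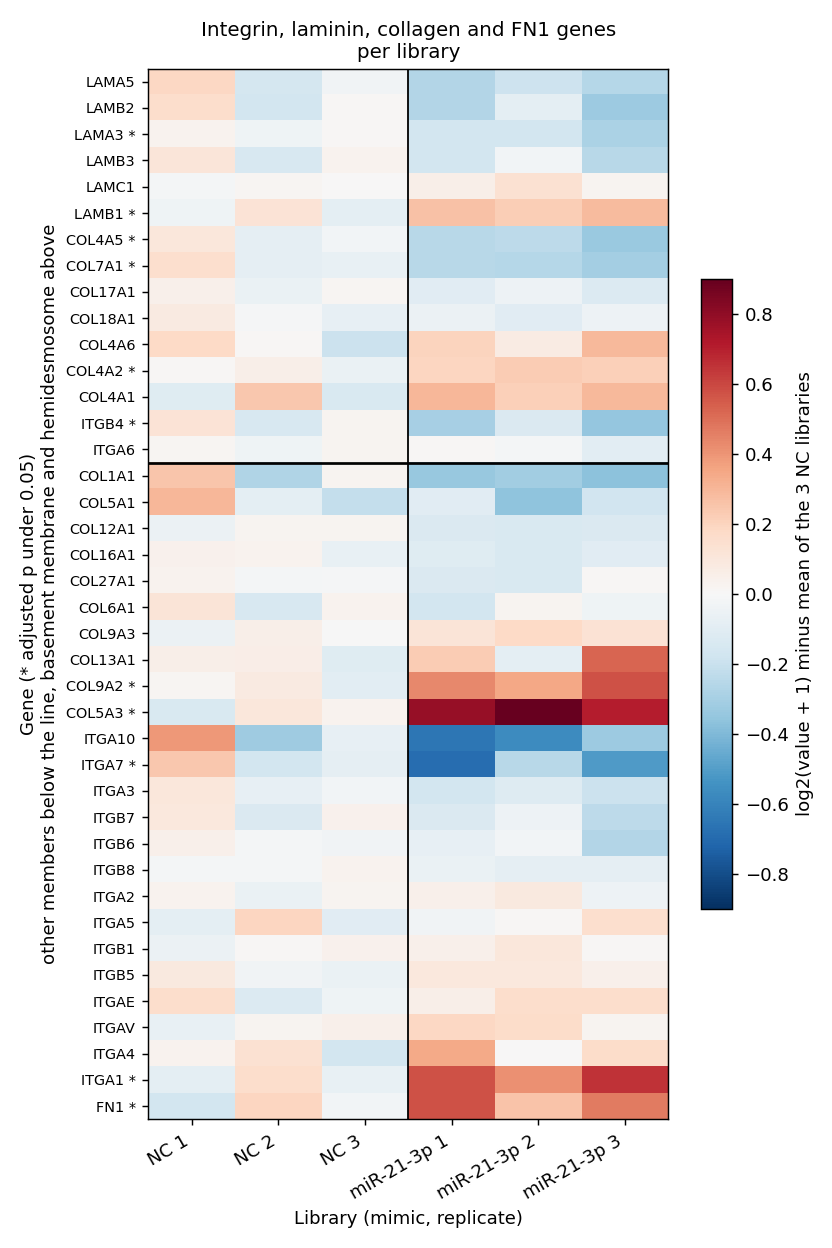
Each cell is the log2(normalised read count + 1) of a gene (vertical axis) in a library (horizontal axis) minus the mean of the 3 NC libraries; 15 basement membrane and hemidesmosome genes are above the line, the 25 others below, and a star marks an adjusted p under 0.05. COL5A3, ITGA1 and FN1 are red in all 3 miR-21-3p libraries, and NC replicates 1 and 2 often have opposite colours.

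**Figure D3:**
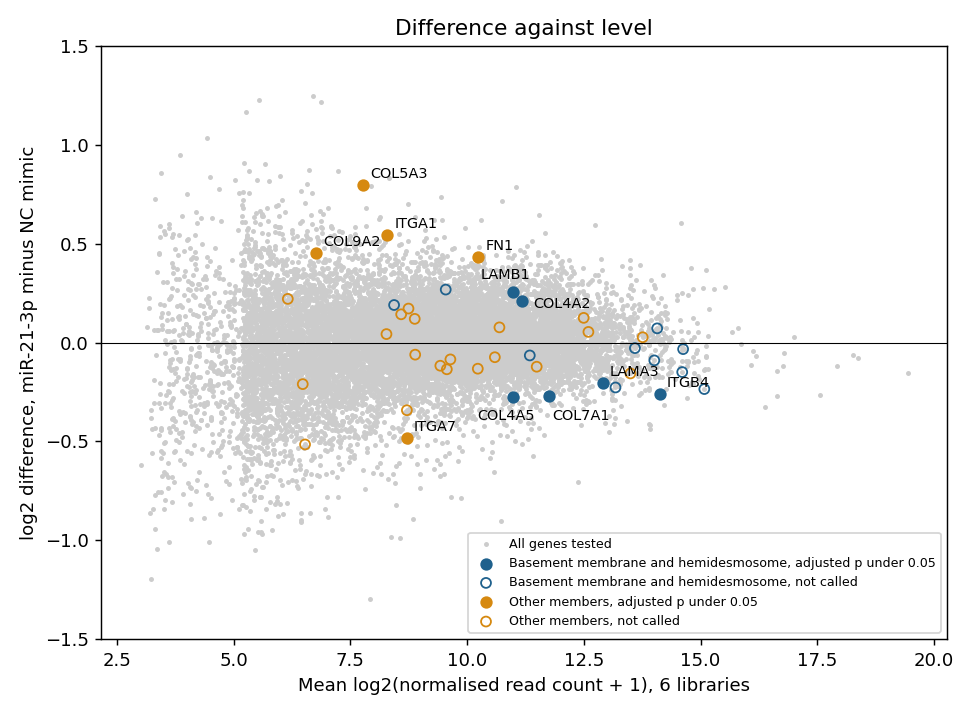
Log2 difference, miR-21-3p minus NC (vertical axis), against the mean log2 level over 6 libraries (horizontal axis), with all genes tested in grey; 4 genes lie beyond the axis limit of 1.5. Filled points are the 11 called genes and open points the 30 not called; COL5A3 has the largest difference of the 41, 0.80.

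Levels between genes were compared as normalised read counts per kilobase of exon. In the NC libraries LAMB3 stood first at 5624 ± 500 (SD, n = 3), followed by ITGA6 at 3919 ± 93.1 and ITGB4 at 2909 ± 275. LAMA5, at 2645 ± 328, and COL17A1, at 2411 ± 94.2, came next, and neither ITGB4 and LAMA5 nor LAMA5 and COL17A1 were separated beyond their SDs. Thus 4 of the 5 highest levels belonged to hemidesmosome genes and the fifth to the alpha chain of the other epidermal laminin. The fibrillar and FACIT collagens, which lie along or within fibrils, were far lower, between 8.60 for COL5A1 and 101 for COL12A1. ITGA1 (13.9) and COL5A3 (24.6), the genes with the largest rises, were among the lowest levels per kilobase. FN1 was at 60.4 ± 7.73 in NC and 81.4 ± 9.08 with miR-21-3p.

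**Figure D4:**
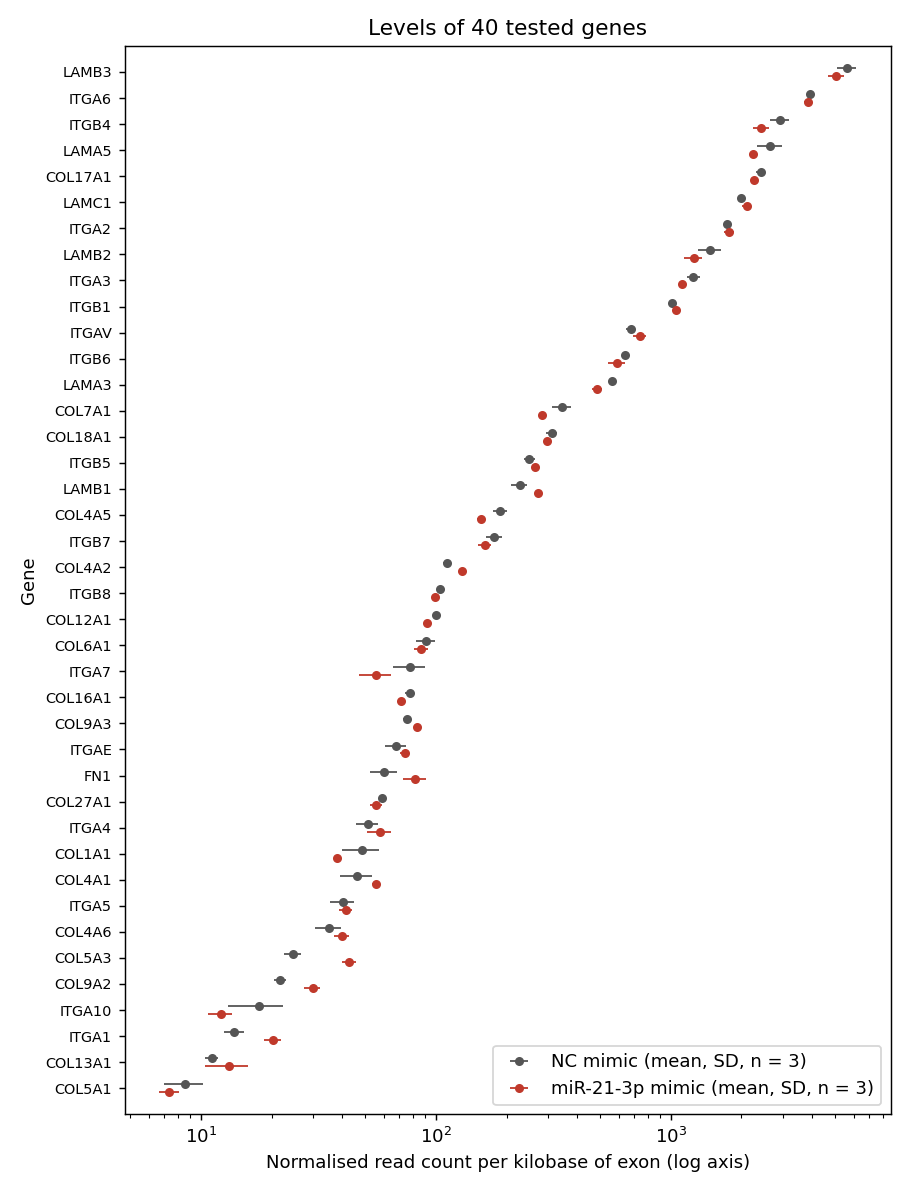
Normalised read count per kilobase of exon (horizontal log axis) of 40 tested genes (vertical axis, ordered by the NC level), as mean and SD of 3 libraries for each mimic. Levels run from LAMB3 at 5624 down to COL5A1 at 8.60 in the NC libraries.

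The subunits of the hemidesmosome receptor were both abundant. ITGB4, the beta subunit whose long cytoplasmic tail carries the link to keratin filaments, read 21400, 17700 and 19900 in NC and 15900, 17900 and 15400 with miR-21-3p. The groups overlapped, because miR-21-3p replicate 2 lay just above NC replicate 2. The log2 difference was -0.26 (SE 0.07, limma adjusted p = 0.0385). The call was lost without NC replicate 1 (adjusted p = 0.143), NC replicate 3 (0.135), miR-21-3p replicate 1 (0.145) or miR-21-3p replicate 3 (0.139), and over 19 settings the adjusted p ran from 0.00212 to 0.145. ITGA6, the alpha subunit that pairs with it, read 25900, 24900 and 26000 in NC and 25800, 25300 and 24000 with miR-21-3p. Its libraries overlapped almost completely (log2 difference -0.03, adjusted p = 0.69). COL17A1, the transmembrane collagen of the same junction, read 17600, 16300 and 17200 in NC and 15900, 16500 and 15600 with miR-21-3p, and its groups overlapped too (log2 difference -0.09, adjusted p = 0.229).

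The laminin that these receptors bind was also measured chain by chain. LAMA3, its alpha chain, read 8400, 8000 and 8270 in NC and 7330, 7320 and 6750 with miR-21-3p. Every treated library lay below every control. Its log2 difference came to -0.21 (SE 0.05, limma adjusted p = 0.0192), with the call lost without NC replicate 1 (0.0619), NC replicate 3 (0.0911), miR-21-3p replicate 1 (0.0665) or miR-21-3p replicate 3 (0.0825). LAMB3, its beta chain, read 28400, 23800 and 26900 in NC and 23400, 25800 and 22100 with miR-21-3p. These groups overlapped and LAMB3 was not called (log2 difference -0.15, adjusted p = 0.19), although without NC replicate 2 the adjusted p was 0.0241. Leaving out NC replicate 1 instead gave a log2 difference of -0.09 (adjusted p = 0.491).

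COL7A1, which forms the anchoring fibrils below the basement membrane, read 4210, 3590 and 3630 in NC and 3200, 3180 and 3070 with miR-21-3p. NC replicate 1 was high, but the other controls also lay above all treated libraries. This amounted to a log2 difference of -0.27 (SE 0.06, 0.829-fold, limma adjusted p = 0.0173). The call was lost without NC replicate 3 (0.0556), miR-21-3p replicate 1 (0.0687) or miR-21-3p replicate 3 (0.0693).

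The remaining laminin chains moved in both directions. LAMB1, the beta chain of laminins found in most basement membranes, read 1800, 2010 and 1740 in NC and 2220, 2150 and 2250 with miR-21-3p. All treated libraries lay above the controls, with NC replicate 2 the highest control. The log2 difference was 0.26 (SE 0.06, limma adjusted p = 0.0183), and the call was lost without NC replicate 1 (0.059), NC replicate 3 (0.0966), miR-21-3p replicate 1 (0.0821) or miR-21-3p replicate 3 (0.0716). LAMB2, the beta chain that takes the place of LAMB1 in other trimers, read 11200, 8930 and 10100 in NC and 8340, 9430 and 8010 with miR-21-3p. Its groups overlapped through NC replicate 2, and it was not called (log2 difference -0.23, adjusted p = 0.0798, and -0.15 with 0.261 without NC replicate 1). Its adjusted p was 0.00436 without NC replicate 2, 0.037 without miR-21-3p replicate 2 and 0.0296 with DESeq2 on the recovered reads, over a range of 0.00436 to 0.261.

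LAMA5, the alpha chain of the second epidermal laminin, read 42900, 33700 and 36800 in NC and 31300, 33100 and 31500 with miR-21-3p. The groups did not overlap, but NC replicate 2 lay close to the highest treated library and NC replicate 1 far above it. LAMA5 was not called (log2 difference -0.24, limma adjusted p = 0.0623, and -0.14 with 0.195 without NC replicate 1). Its adjusted p was under 0.05 without NC replicate 2 (0.00393), with DESeq2 (0.0114), with edgeR (0.0449 to 0.0498 over 3 scalings) and with the GC trend of each library removed (0.043), over a range of 0.00393 to 0.196. LAMC1, the gamma chain that most laminins share, had a log2 difference of 0.07 (adjusted p = 0.325), its value having been seen before it was named.

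The collagen IV chains are made from gene pairs that lie head to head, and 4 of the chain genes had an entry in the table. COL4A2, a chain of the network present in all basement membranes, read 2170, 2230 and 2060 in NC and 2460, 2520 and 2500 with miR-21-3p. The treated libraries were close together and above every control. Its log2 difference came to 0.21 (SE 0.05, limma adjusted p = 0.0178), and the call was lost without NC replicate 3 (0.0997), miR-21-3p replicate 1 (0.0725) or miR-21-3p replicate 3 (0.0652). COL4A1, its partner chain in the same trimer, read 630, 805 and 617 in NC and 835, 788 and 831 with miR-21-3p. NC replicate 2 sat among the treated libraries while the other controls lay well below them. COL4A1 was not called (log2 difference 0.27, adjusted p = 0.0761). Its adjusted p was 0.0012 without NC replicate 2 and 0.27 without NC replicate 3. Per kilobase, COL4A2 over COL4A1 was 2.43 ± 0.28 in NC and 2.33 ± 0.10 with miR-21-3p (SD, n = 3), with overlapping groups.

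COL4A5, a chain of the other collagen IV network of skin, went the other way and read 2390, 2110 and 2190 in NC against 1870, 1890 and 1770 with miR-21-3p. No treated library reached a control. This amounted to a log2 difference of -0.27 (SE 0.06, limma adjusted p = 0.0129), and the call was lost without NC replicate 3 (0.062), miR-21-3p replicate 1 (0.0586) or miR-21-3p replicate 3 (0.0574). COL4A6, its trimer partner and head-to-head neighbour, read 367, 326 and 283 in NC and 372, 341 and 397 with miR-21-3p. This gene was described for its position beside COL4A5, after its values were seen. The groups overlapped and it was not called (log2 difference 0.19, adjusted p = 0.239).

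**Figure D5:**
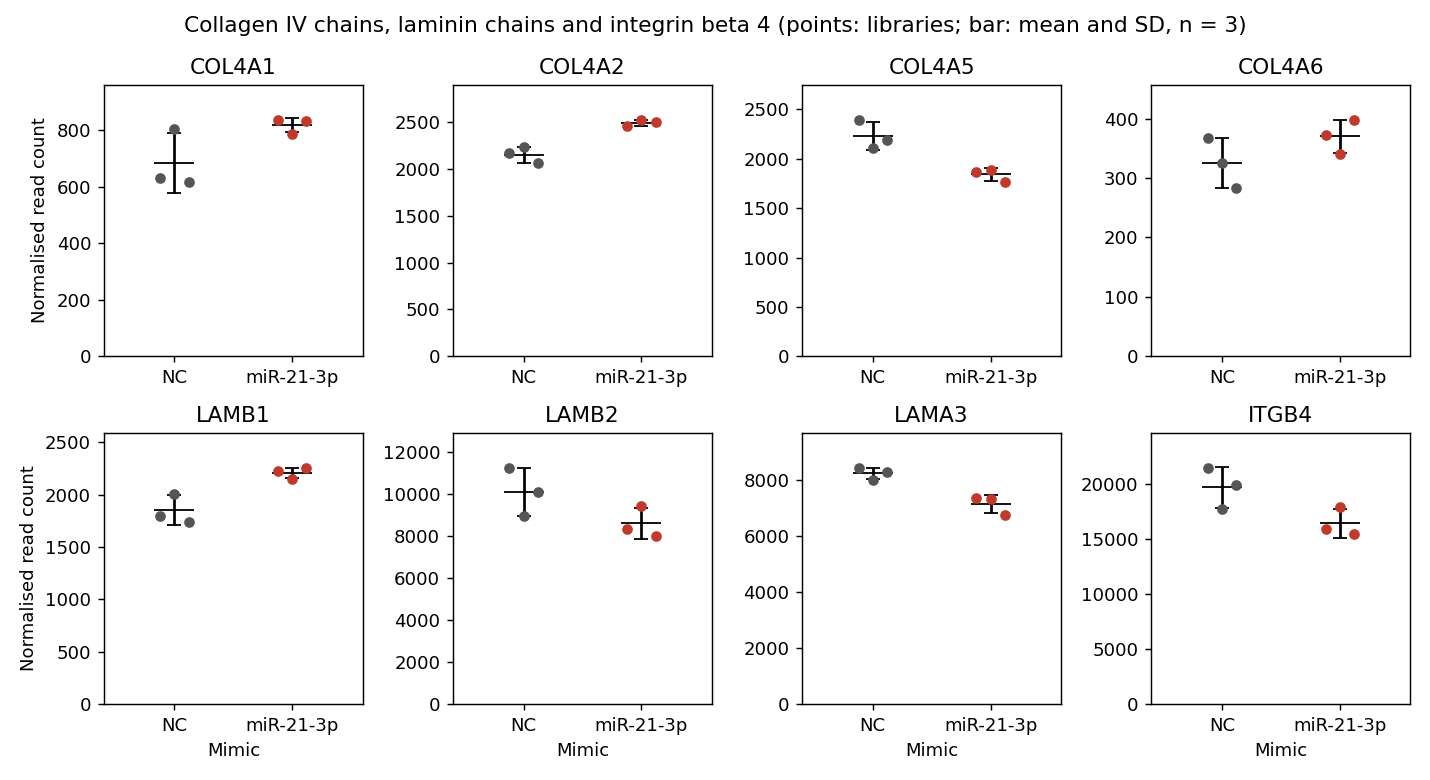
Normalised read count (vertical axis, from 0) in each library, replicates 1 to 3 from left to right within a mimic, with mean and SD (n = 3). COL4A2 and LAMB1 lie higher and COL4A5 and LAMA3 lower in all 3 miR-21-3p libraries, whereas the groups overlap for COL4A1, COL4A6, LAMB2 and ITGB4.

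The start regions of these genes are shown because neighbours with a shared start region were both measured. In RefSeq (GRCh38.p14) the start sites of COL4A1 and COL4A2 lie 127 bases apart on opposite strands, so windows of 250 bases before to 50 after each start share 226 bases. The start of COL4A5 lies 380 bases from one annotated start of COL4A6 and 1416 bases from another. Windows were found for 34 of the 41 genes (44 windows). They were searched on both strands for the GC box GGGCGG, the CCAAT box CCAAT, the TATA box TATAAA and the AP-1 site TGANTCA, and matches are printed in capitals. The windows are COL4A2 at chr13:110307034-110307333 on the plus strand, COL4A5 at chrX:108439588-108439887 on the plus strand, and COL5A3, the gene with the largest rise, at chr19:10010455-10010754 on the minus strand, each 5′ to 3′ along its gene.
COL4A2: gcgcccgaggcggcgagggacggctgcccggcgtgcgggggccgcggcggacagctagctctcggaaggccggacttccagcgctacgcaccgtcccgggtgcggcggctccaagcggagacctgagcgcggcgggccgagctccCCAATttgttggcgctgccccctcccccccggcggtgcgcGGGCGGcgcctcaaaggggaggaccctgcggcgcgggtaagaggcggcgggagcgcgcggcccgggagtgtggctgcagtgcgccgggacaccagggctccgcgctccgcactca
COL4A5: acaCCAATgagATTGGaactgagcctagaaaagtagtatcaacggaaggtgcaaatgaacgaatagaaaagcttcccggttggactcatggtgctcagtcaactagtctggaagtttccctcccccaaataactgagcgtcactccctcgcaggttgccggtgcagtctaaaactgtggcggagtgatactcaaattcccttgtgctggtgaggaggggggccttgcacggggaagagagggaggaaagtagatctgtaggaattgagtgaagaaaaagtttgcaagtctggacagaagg
COL5A3: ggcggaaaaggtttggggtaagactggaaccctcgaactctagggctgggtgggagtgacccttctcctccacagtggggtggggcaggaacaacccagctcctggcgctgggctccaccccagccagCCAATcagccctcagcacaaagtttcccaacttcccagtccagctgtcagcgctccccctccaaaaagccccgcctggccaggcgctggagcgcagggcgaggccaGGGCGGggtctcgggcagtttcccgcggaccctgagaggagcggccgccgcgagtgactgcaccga
The COL4A2 window has 77.7% GC and holds 1 GC box and 1 CCAAT box, which fall in the part shared with COL4A1. COL4A5 has 49.3% GC and 2 CCAAT boxes, 1 on each strand, with no GC box. COL5A3 has 66.7% GC, 1 GC box and 1 CCAAT box. None of these 3 windows holds the TATA box or AP-1 letters, which says only that those letters are not in them. A GC box was found in 31 of the 44 windows of these genes (70.5%) and in 45.0% of 35116 windows of all genes, a CCAAT box in 11 (25.0%) and 34.6%, a TATA box in 6 (13.6%) and 11.5%, and an AP-1 site in 3 (6.8%) and 7.7%. The windows of all genes were not limited to genes that passed the filter, as these 44 were, so the shares compare unlike sets. Such matches describe the letters and not whether a factor binds.

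The largest rise was in a minor fibrillar collagen. COL5A3 (ENSG00000080573.6, chromosome 19), a chain of collagen V, which sets the thickness of collagen fibrils, read 151, 178 and 170 in NC and 287, 311 and 271 with miR-21-3p. The lowest treated library was far above the highest control. The log2 difference was 0.80 (SE 0.10, 1.74-fold, limma adjusted p = 0.00183), and it was past the threshold in all 19 settings tried, with a highest adjusted p of 0.0196. An antisense gene shares 4.0% of its exon length, and the strand setting of the counting was not given in the sources used here.

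ITGA1 (ENSG00000213949.3, chromosome 5), the alpha subunit of a receptor for collagen I and IV, read 242, 287 and 245 in NC and 384, 342 and 404 with miR-21-3p. All treated libraries lay above the controls, with NC replicate 2 the highest control and miR-21-3p replicate 2 the lowest treated. Its log2 difference came to 0.55 (SE 0.10, 1.46-fold, limma adjusted p = 0.0085), lost only without NC replicate 3 (0.0536) among the settings tried. Its exons overlap PELO, a gene on the same strand with the same RefSeq start site and 2.6% of the exon length in common. They also overlap the processed pseudogene AC022133.1 on that strand (3.1%). Neither PELO nor AC022133.1 has an entry in the deposited table, so reads of the overlap cannot be assigned with certainty. ITGA2, the alpha subunit of the main collagen receptor of keratinocytes, read 14100, 13200 and 14000 in NC and 14200, 14600 and 13300 with miR-21-3p. The groups overlapped throughout and ITGA2 was not called (log2 difference 0.03, adjusted p = 0.752; -0.0028 without NC replicate 2 and -0.0019 without miR-21-3p replicate 2). ITGA10, a collagen receptor subunit of cartilage, read 144, 87.6 and 104 in NC and 69.3, 73.8 and 87.0 with miR-21-3p. NC replicate 1 was far above the rest and NC replicate 2 lay just above the highest treated library. ITGA10 had the most negative difference of the 41 genes but was not called (log2 difference -0.51, adjusted p = 0.0817, and 0.0133 without NC replicate 2). Without NC replicate 1 its difference was -0.32 (adjusted p = 0.276), and that of ITGA7 was more negative (-0.36). The same order held without miR-21-3p replicate 2 (-0.49 for ITGA10 and -0.60 for ITGA7).

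FN1, the fibronectin that keratinocytes bind when they spread, read 926, 1190 and 1020 in NC and 1550, 1240 and 1440 with miR-21-3p. The groups did not overlap, though NC replicate 2 came close to miR-21-3p replicate 2. This amounted to a log2 difference of 0.43 (SE 0.09, 1.35-fold, limma adjusted p = 0.0163), and the call was lost without NC replicate 1 (0.0608), NC replicate 3 (0.0765), miR-21-3p replicate 1 (0.0852) or miR-21-3p replicate 3 (0.0645). The receptors of fibronectin and related ligands held 0 calls among 5 tested subunits with limma, where 10.8% of all genes tested were called. With 5 genes, 0 calls cannot be told from that share. Of these subunits 1 had an unadjusted limma p under 0.05 (ITGAV, 0.0351), and calls were also 0 with DESeq2 and with edgeR. ITGA5, the alpha subunit of the classical fibronectin receptor, read 286, 347 and 283 in NC and 298, 306 and 337 with miR-21-3p. These groups overlapped, and the log2 difference of 0.04 (adjusted p = 0.806) turned to -0.0007 without NC replicate 1 and -0.01 without NC replicate 3 or miR-21-3p replicate 3. ITGAV, the alpha subunit shared by several fibronectin and vitronectin receptors, had a log2 difference of 0.13 (adjusted p = 0.142). ITGB1, the beta subunit with which most alpha subunits pair, read 5870, 6140 and 6260 in NC and 6290, 6540 and 6140 with miR-21-3p. Its groups overlapped and it was not called (log2 difference 0.05, adjusted p = 0.457).

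Of the laminin-binding integrins outside the hemidesmosome, ITGA7, better known from muscle, read 585, 441 and 466 in NC and 306, 414 and 347 with miR-21-3p. The groups did not overlap, with miR-21-3p replicate 2 closest to the controls. The log2 difference was -0.48 (SE 0.12, 0.716-fold, limma adjusted p = 0.0275), and the call was lost without NC replicate 1 (0.103), NC replicate 3 (0.080), miR-21-3p replicate 1 (0.124) or miR-21-3p replicate 3 (0.0876). ITGA3, the alpha subunit of the laminin receptor of focal contacts in keratinocytes, read 13100, 11600 and 12000 in NC and 10900, 11300 and 10700 with miR-21-3p. All treated libraries lay below the controls, but ITGA3 was not called (log2 difference -0.16, adjusted p = 0.0707). Its adjusted p was 0.0184 without NC replicate 2 and 0.0423 with DESeq2, over a range of 0.0184 to 0.216.

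Among the other collagens, COL9A2, a chain of a FACIT collagen (a type that decorates fibrils), read 92.7, 96.8 and 85.9 in NC and 124, 117 and 137 with miR-21-3p. The groups did not overlap. Its log2 difference came to 0.45 (SE 0.12, 1.37-fold, limma adjusted p = 0.037), and the call was lost without NC replicate 1 (0.0859), NC replicate 3 (0.140), miR-21-3p replicate 1 (0.113) or miR-21-3p replicate 3 (0.143), and with DESeq2 (0.078). COL1A1, a chain of the main fibrillar collagen of dermis, read 560, 390 and 478 in NC and 372, 378 and 364 with miR-21-3p. The treated libraries were nearly equal and the controls widely spread. COL1A1 was not called (log2 difference -0.34, adjusted p = 0.0641). Its adjusted p was 0.00186 without NC replicate 2, 0.0255 with DESeq2 and 0.0487 with edgeR and upper-quartile scaling. Without NC replicate 1 the log2 difference was -0.22 (adjusted p = 0.212). The most abundant members of the remaining roles were also not called. COL12A1, a FACIT collagen, had a log2 difference of -0.13 (adjusted p = 0.113), and COL27A1, a fibrillar collagen, one of -0.09 (0.39). COL6A1, of the microfibrils of collagen VI, had -0.06 (0.672). COL18A1, the precursor of endostatin, had -0.07 (0.417) and ITGB7, a beta subunit of leukocytes, -0.14 (0.252). Genes on the opposite strand share 16.4% of the COL18A1 exon length (SLC19A1) and 42.1% of the ITGB7 exon length (ZNF740), so both values are uncertain.

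Ratios between partner genes were taken within each library from the per kilobase values, for 8 pairs picked after the values had been seen. Because of that choice the ratios are a description. An exact permutation test was run on each, but with 3 libraries per mimic its p-value cannot go below 0.10, so it could not decide. ITGB4 over ITGA6 was 0.798, 0.687 and 0.740 in NC and 0.595, 0.684 and 0.620 with miR-21-3p. NC replicate 2 and miR-21-3p replicate 2 were nearly equal in this ratio. LAMB1 over LAMB2 was 0.136, 0.190 and 0.145 in NC and 0.224, 0.192 and 0.237 with miR-21-3p, again with both replicates 2 almost alike. COL4A5 over COL4A6 was 5.40 ± 0.56 in NC and 3.92 ± 0.42 with miR-21-3p (SD, n = 3). COL4A1 over COL4A5 was 0.249 ± 0.051 and 0.358 ± 0.021, in the same order. In each of these pairs the 3 treated ratios lay on 1 side of the 3 controls. ITGA1 over ITGA2 was 0.00801 ± 0.0011 in NC and 0.0115 ± 0.0015 with miR-21-3p, so ITGA2 stayed the far more abundant collagen receptor subunit in every library.

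Genes that work with these proteins were counted in 5 further lists, together 81 distinct tested genes. Of these, 5 rose and 9 fell (17.3%, beside 10.8% of all genes tested). Leaving out 1 library gave 0 to 5 higher and 2 to 15 lower, and upper-quartile scaling of the values gave 2 higher. Of 14 other basement membrane and hemidesmosome genes 0 rose and 3 fell with limma (21.4%, beside 10.8% of all genes tested). At an unadjusted p under 0.05 (limma) 1 was higher, and rises were also 0 with DESeq2 and edgeR. With 14 genes, 0 rises cannot be told from the 6.11% of all genes tested that were higher. NTN4, a netrin that binds laminin, read 3240, 2840 and 3110 in NC and 2220, 2460 and 2110 with miR-21-3p. Its groups were well apart (log2 difference -0.44, limma adjusted p = 0.00403, and under 0.05 without any 1 library). DST and PLEC, the plakins that join the hemidesmosome to keratin filaments, had log2 differences of -0.17 (adjusted p = 0.0294) and -0.16 (0.0295), PLEC being named after its value was seen. Both calls were lost without NC replicate 1 (DST 0.0892, PLEC 0.0876), NC replicate 3 (0.123, 0.119), miR-21-3p replicate 1 (0.0857, 0.133) or miR-21-3p replicate 3 (0.112, 0.0837). The PLEC call was also lost with the GC trend of each library removed (-0.12, 0.0784), and the DST call was not.

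Of 29 genes of the focal adhesion machinery, which links integrins to actin, 1 rose and 3 fell (13.8%, close to the 10.8% of all genes tested). TNS3, a tensin that binds integrin beta tails, read 9680, 8600 and 9150 in NC and 6940, 7230 and 6510 with miR-21-3p. The groups were far apart (log2 difference -0.41, limma adjusted p = 0.00262, and under 0.05 without any 1 library). TLN1, the talin that activates integrins, had a log2 difference of -0.23 (adjusted p = 0.0156), lost without NC replicate 3 (0.0873), miR-21-3p replicate 1 (0.0769) or miR-21-3p replicate 3 (0.0693). FLNA, an actin cross-linker that competes with talin for integrin tails, had 0.23 (0.0237), lost without NC replicate 1 (0.0801), NC replicate 3 (0.125), miR-21-3p replicate 1 (0.0975) or miR-21-3p replicate 3 (0.0922). The last fall was KANK1 (-0.19, 0.0496), a talin-binding protein named after its value was seen, and it was lost without NC replicate 1 (0.12), NC replicate 3 (0.161), miR-21-3p replicate 1 (0.179), replicate 2 (0.104) or replicate 3 (0.0823), and with DESeq2 (0.0761), no filter (0.0552) or a pseudocount of 8 (0.0501).

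Of 19 genes of collagen synthesis and processing 3 rose and 2 fell (26.3%, beside 10.8% of all genes tested). COLGALT1, which adds galactose to collagen hydroxylysine, read 2480, 2830 and 2590 in NC and 3180, 3190 and 3290 with miR-21-3p. Its treated libraries lay above every control (log2 difference 0.29, limma adjusted p = 0.00902; 0.0559 without NC replicate 3). PLOD3, which hydroxylates the same lysines, had a log2 difference of 0.18 (0.0451), lost without NC replicate 1 (0.0717), NC replicate 3 (0.199), miR-21-3p replicate 1 (0.102), replicate 2 (0.0933) or replicate 3 (0.145), and PPIB, a prolyl isomerase of collagen folding named after its value was seen, had 0.23 (0.0493), lost without NC replicate 1 (0.164), NC replicate 3 (0.152), miR-21-3p replicate 1 (0.141) or miR-21-3p replicate 3 (0.172). The PPIB groups met at 3940 in both replicates 2, and its call was also lost with edgeR (0.0532 to 0.0615 over 3 scalings), voom (0.0512), no filter (0.0564), TMM (0.0519) or upper-quartile scaling (0.0592) of the values and the GC trend removed (0.0514). PLOD3 was also lost with DESeq2 (0.0593), edgeR and upper-quartile scaling (0.0554), and TMM (0.0502) or upper-quartile scaling (0.0591) of the values. BMP1, the protease that trims procollagen ends and also laminin chains, had -0.28 (0.0124), lost without NC replicate 3 (0.0563) or miR-21-3p replicate 1 (0.0713). PCOLCE, which enhances that trimming, had -0.55 (0.0162), lost without NC replicate 1 (0.0648), NC replicate 3 (0.0636), miR-21-3p replicate 1 (0.0705) or miR-21-3p replicate 3 (0.0642). Of 11 other integrin ligands and matricellular proteins 1 rose (TNC, 0.30, 0.0495) and 1 fell (TGFBI, -0.24, 0.044), which is 18.2% beside 10.8% of all genes tested. Both calls were lost without NC replicate 1 (0.168 and 0.157), NC replicate 3 (0.139 and 0.167), miR-21-3p replicate 1 (0.136 and 0.141) or miR-21-3p replicate 3 (0.183 and 0.160). Without the filter both were lost too (0.0565 and 0.0528), and TNC also with edgeR and upper-quartile scaling (0.0536) and with TMM (0.0514) or upper-quartile scaling (0.0569) of the values. TNC is a glycoprotein of wound edges that binds FN1, and TGFBI a secreted ligand of several integrins. Of 10 other matrix receptors 0 were called in either direction with limma or edgeR. With 10 genes this cannot be told from the 10.8% of all genes tested that were called. At an unadjusted p under 0.05 (limma) 2 were higher and 3 lower, and DESeq2 called 1, DDR1, lower.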

How the data were processed

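HaCaT RNA was measured in 6 libraries, 3 per mimic. Per the labels, the authors used bcl2fastq 2.18.12, cutadapt 1.15, TopHat2 2.1.1, featureCounts of Subread 1.5.2 and DESeq2; genome build and annotation are not given in the sources used here. The deposited values are a signal per gene, read counts divided by a size factor and rounded to 3 significant digits. The planned test, edgeR with TMM scaling and its own filter, assumed raw counts. In its place limma 3.58.1 (R 4.3.3, trend) was used on log2(value + 1), with genes of at least 10 in at least 3 libraries. Benjamini-Hochberg adjustment was over 14795 genes. Fold changes are on the log2(value + 1) scale and understate those of low genes. Dividing the low values (at most 20 reads) by the value of 1 read gave whole numbers (within 0.1) for 100.0% of them in each library. Higher counts were recovered only to the 3 deposited digits. On these recovered reads edgeR 4.0.16 with TMM, the planned tool and scaling but with the filter used for limma, called 1644 genes. They held 12 members, the 11 called with limma and LAMA5. This edgeR run was added after the data were seen. DESeq2 1.42.0 called 1618 genes. The floor of 3 reads covers counting error only. The fits were tested on simulated data, drawn with neither a GC trend nor a control nearer the treated libraries. Exon lengths, GC and overlaps came from GENCODE 29 (GRCh38), matched by identifier to 19987 of 22152 entries (90.2%) and to all 41 tested members. Promoter windows came from RefSeq (GRCh38.p14). The members and lists were chosen with earlier results of these data known. Genes were named if called, if central to the hemidesmosome or the main integrins, or if among the 5 largest differences not called. The most abundant gene of a role was named too. Outside the members, at most 2 per direction with the smallest adjusted p in a list were named. COL4A6, COL5A1, COL13A1, LAMC1, PLEC, KANK1, PPIB and DDR1 were named after their values were seen. A member and the ratios that use it are counted but not reported here one by one. Alternatives were other tools, scalings, filters and pseudocounts, removal of each library's GC trend, the replicate number as a block and leaving out each library.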

Additional observations from a re-analysis of the deposited data

How the results depend on the processing

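Over 19 settings no called member changed direction, and COL5A3 was the only member past the threshold in all of them. The members called lower numbered 9 with DESeq2, and the others outside the basement membrane called lower 3 with DESeq2 and 2 with edgeR and upper-quartile scaling. The pathway genes called higher numbered 2 with edgeR and upper-quartile scaling, 3 without the filter, and 2 each with TMM and upper-quartile scaling of the values, both chosen after seeing the data. With the replicate number as a block, they were 3 higher and 5 lower (DST 0.0759, PLEC 0.0993, KANK1 0.112, TGFBI 0.0601, PLOD3 0.0968 and PPIB 0.0539 lost), members kept 9 of 11 calls (COL9A2 0.0653 and ITGB4 0.0503 lost) and 1193 genes were called in place of 1593; the numbers did not pair the libraries, with correlations of -0.002, -0.199 and -0.161 between those of equal number. Why these counts moved was not tested. With the GC trend removed, chosen after seeing the data, all 11 calls were kept and LAMA5 was added. Leaving out each library in turn gave 95 to 1627 genes higher and 81 to 1330 lower over the table, and among members 1 to 7 higher and 0 to 11 lower. Basement membrane and hemidesmosome members ran from 0 to 3 higher and 0 to 7 lower, other members from 1 to 4 and 0 to 4, and pathway genes from 0 to 5 and 2 to 15. The median log2 difference ran from -0.070 to -0.025 over members, from -0.096 to -0.050 over those of the basement membrane and hemidesmosome, and from -0.009 to 0.018 over the others. That of ITGA2 ran from -0.0028 to 0.07 and that of ITGA5 from -0.01 to 0.14. Fewer libraries carried each of these fits. The largest SEs of the log2 difference were those of ITGA10, COL13A1 and COL5A1 (0.18, 0.17 and 0.16), all under 150 normalised reads in every library; whether depth set them was not tested.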
